A study of Mus musculus with 4 samples.

Results

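NF-kB transcription factors, their feedback inhibitors and 4 of their classic inflammatory targets were measured in C2C12 myoblasts after knockdown of Fxr1. The group held 10 genes chosen by name: the subunits Nfkb1, Nfkb2, Rela and Relb, the inhibitors Nfkbia and Tnfaip3, and the targets Birc3, Icam1, Vcam1 and Ptgs2. All array probes carrying these names were taken, which gave 13 of 55681 probes, 23 of 59305 spots and 10 of 36413 gene names. C2C12 is a mouse myoblast line that divides in growth medium and fuses into myotubes in culture. Cells were transfected with siFxr1, an siRNA against a constitutive exon of Fxr1 that reaches all its mRNA isoforms, or with siControl, a random siRNA, and RNA was analysed 48 hrs later, so cells of both conditions had been through transfection. Fxr1 encodes an RNA-binding protein of the fragile X family. Each condition was measured on 2 one-colour Agilent arrays, 1 in each of 2 independent experiments, and both samples of an experiment were run on one slide, so experiment and slide cannot be told apart. No untransfected cells were used here.

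NF-kB dimers are held in the cytoplasm by IkB proteins. When receptors for cytokines or microbial products activate the IkB kinase complex, IkB is degraded and the dimers enter the nucleus, where they bind kB sites and switch on genes for chemokines, adhesion molecules, survival factors and their own inhibitors. Signalling has a canonical and a non-canonical arm. The canonical arm works through Rela and Nfkb1, and the non-canonical arm through Relb and Nfkb2. In muscle, NF-kB activity is known to restrain myogenic differentiation and to accompany wasting. Since the dimers are released from a store of protein, mRNA levels of the subunits are no direct measure of NF-kB activity, which was not assayed on these arrays.

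Matches to the kB site were sought close to the starts of the genes in the group, and 3 of the 7 that could be searched had one. RefSeq promoter windows (GRCm38.p6) of 300 bases around a start were at hand for 7 of the 10 genes. The kB consensus, of 10 letters, was searched for on both strands by script, with overlapping matches kept. It was found for Nfkb2, for Nfkbia and, in 1 of its 2 windows, for Tnfaip3. That is 42.9% of the 7 genes, against 5.14% of 27025 genes with a window. The share was 52.4% among 21 further inflammatory targets with a window, so it is not particular to the group. Rela and the targets Birc3, Icam1 and Ptgs2 had a window and no match. The bases just upstream of the start follow for these 3 genes and for Il6, an inflammatory target described further on. They run 5′ to 3′ on the strand of the gene, with the last base next to the start, and capitals mark matches on either strand. A match is a likeness of letters and no evidence of binding.
Nfkb2, chr19:46304637-46304736, plus strand: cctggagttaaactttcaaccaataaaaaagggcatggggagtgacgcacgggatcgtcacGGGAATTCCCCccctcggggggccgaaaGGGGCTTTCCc
Nfkbia, chr12:55492648-55492747, minus strand: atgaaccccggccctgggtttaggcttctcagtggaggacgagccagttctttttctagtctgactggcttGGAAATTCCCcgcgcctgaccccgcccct
Tnfaip3, chr10:19015411-19015540, minus strand: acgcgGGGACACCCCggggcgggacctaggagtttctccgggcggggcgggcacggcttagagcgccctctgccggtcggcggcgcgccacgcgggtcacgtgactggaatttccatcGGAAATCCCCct
Il6, chr5:30013014-30013113, plus strand: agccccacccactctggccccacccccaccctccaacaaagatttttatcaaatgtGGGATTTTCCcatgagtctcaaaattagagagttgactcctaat

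The knockdown itself was seen on both probes of Fxr1, whose log2 fold changes of siFxr1 over siControl were -3.31 (SE 0.29) and -3.61 (SE 0.28). Neither probe passed the test over all probes (limma adjusted p = 0.950 for both), so a change of this size could go without a call in this fit. C2C12 identity was checked on 6 myoblast markers. Myod1, Des, Cdh15, Myog and Pax7 were well above background on all 4 arrays, and Myf5 on none. Markers of other cells were read by their brightest probe. The pan-leukocyte gene Ptprc and the endothelial genes Tie1 and Emcn were not well above background on any array. Itgam, Csf1r, Cd14, Cdh5 and Kdr were on all 4, and Cd68, Lyz2, Pecam1 and Tek on some arrays only. The other Kdr probe, printed 10 times, was well above background on none, and the further Itgam probes on 1 array each. RNA integrity was 8 for siFxr1 in experiment 1 and 9 for the other samples, and its part in the results was not tested. As these are bulk samples, fewer cells expressing a gene and less RNA per cell cannot be told apart. The submitters describe the experiments as independent, and p-values measure the spread between 2 arrays per condition.

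Of the 10 genes, 8 were well above background on all 4 arrays and 2, Birc3 and Icam1, on none. Between siFxr1 and siControl, none of the 13 probes passed the test, with limma adjusted p between 0.969 and 0.993. The same fit called 0 of 55681 probes (0%), with 2764 at an unadjusted p under 0.05, of which 1 was a member probe. By their brightest probe, 5 of the 8 genes were higher in siFxr1 in both experiments (Nfkb1, Relb, Tnfaip3, Vcam1 and Ptgs2), 2 were lower in both (Rela and Nfkbia) and Nfkb2 differed in sign. Relb was higher by only 0.01 in experiment 1, and stood at -0.01 there in the authors' normalized table. These counts depended on the background treatment. Under each alternative background correction and in the authors' table, Vcam1 was lower in experiment 1 (-0.26 in that table). Nfkb2 was lower in both experiments under the same settings. Over all 11 probes of these genes, 6 (54.5%) were higher and 2 (18.2%) lower in both experiments, with a median log2 fold change of 0.21. Over the 25540 probes that were not dim, meaning well above background in both samples of one or the other condition, 33.2% were higher and 31% lower in both, with a median of 0.02. The median of the 8 brightest probes was 0.34. No member probe reached 2-fold in the same direction in both experiments, which 1.39% of all probes did upwards and 1.16% downwards.

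**Figure D1:**
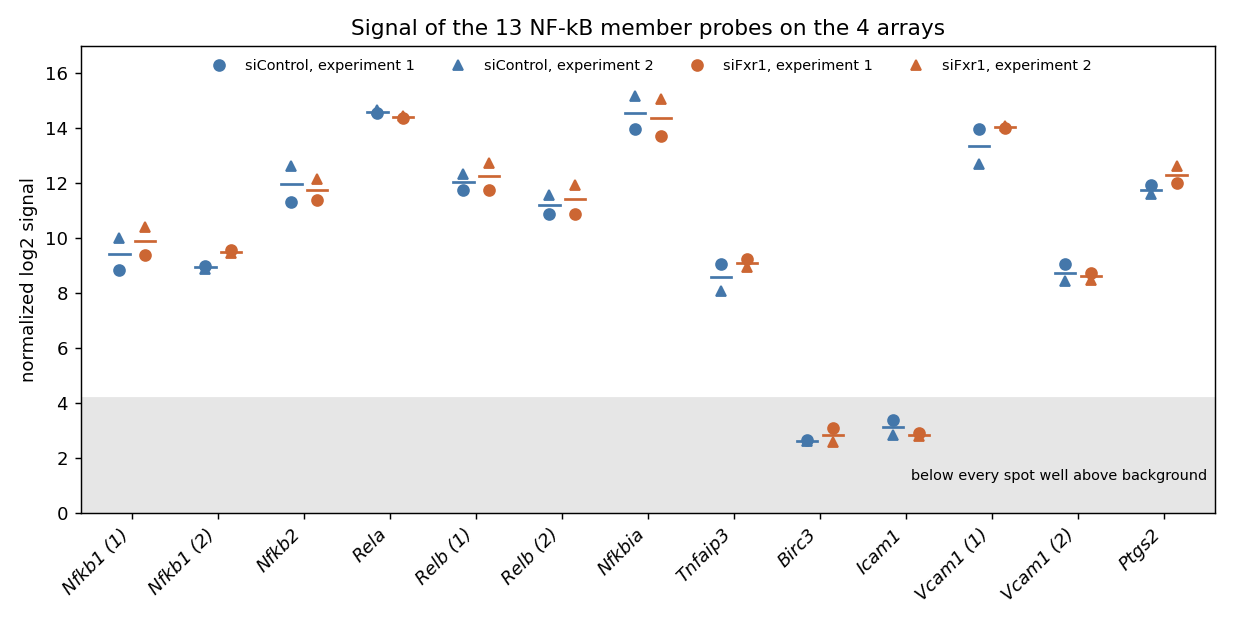
Normalized log2 signal (vertical axis) of the 13 member probes on the 4 arrays, with circles for experiment 1, triangles for experiment 2, blue for siControl, orange for siFxr1 and a line at each mean of 2 arrays; numbers in brackets tell probes of a gene apart, the brightest first. Levels compare within a probe only. The probes of Birc3 and Icam1 lie between 2.59 and 3.40, in the grey range under every spot marked well above background.

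Rela, the transactivating subunit of the canonical dimer, varied least over the 4 arrays among the 8 measured members. Its normalized log2 signal was 14.55 and 14.66 on the siControl arrays of experiments 1 and 2, and 14.36 and 14.45 on the siFxr1 arrays. Both siFxr1 values lay below both siControl values, by 0.19 in experiment 1 and 0.20 in experiment 2. The log2 fold change was -0.20 (SE 0.16), with an interval of 95% from -0.67 to 0.28. With arrays scaled to their 75th percentile the change was -0.11 and the conditions overlapped, and without background correction the difference in experiment 1 was -0.03.

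Nfkb1 encodes p105, the precursor of the p50 subunit. It was read by 2 probes that lie apart on the minus strand of chromosome 3 (mm9, 135254550 to 135254609 and 135247621 to 135247680). The brighter one stood at 8.83 and 10.002 in siControl and at 9.37 and 10.39 in siFxr1. It was higher in siFxr1 by 0.54 in experiment 1 and 0.39 in experiment 2, but the distance between the experiments was larger than that between the conditions, so the groups overlapped (log2 fold change 0.47, SE 0.63). The second probe, averaged over 2 spots, stood at 8.99 and 8.89 in siControl and at 9.56 and 9.47 in siFxr1. Here the groups did not overlap, and the difference was 0.56 in experiment 1 and 0.57 in experiment 2. This was the member probe with an unadjusted p under 0.05 (log2 fold change 0.57, SE 0.16, limma adjusted p = 0.969). Both probes thus put Nfkb1 mRNA higher in siFxr1 by a similar amount in both experiments, a difference of 1.38 and 1.48-fold, without passing the test over all probes.

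Relb and Nfkb2 form the dimer of the non-canonical arm. Relb was at 11.76 and 12.33 in siControl and at 11.77 and 12.74 in siFxr1 on its brighter probe. The conditions were level in experiment 1 (0.01) and siFxr1 was higher by 0.41 in experiment 2. A second Relb probe, which overlaps the first by a few bases on chromosome 7 and is therefore no independent measurement, gave 0.00 and 0.37. Nfkb2 was at 11.31 and 12.63 in siControl and at 11.39 and 12.15 in siFxr1. Its differences of 0.08 and -0.48 had opposite signs, with a log2 fold change of -0.20 (SE 0.61).

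Nfkbia encodes IkB-alpha, the inhibitor that NF-kB induces to end its own response. Its normalized log2 signal was 13.97 and 15.18 in siControl and 13.72 and 15.06 in siFxr1. The 2 arrays of experiment 2 were both higher than those of experiment 1, and within each experiment siFxr1 was slightly lower, by 0.25 and 0.11. The log2 fold change was -0.18 (SE 0.72). Its interval of 95% ran from -2.38 to 2.02 without the experiment as a term, and from -0.79 to 0.43 with it. Tnfaip3 encodes A20, a ubiquitin-editing enzyme that switches off signalling upstream of the IkB kinase. It was at 9.07 and 8.08 in siControl and at 9.23 and 8.95 in siFxr1. siFxr1 was higher by 0.16 in experiment 1 and 0.87 in experiment 2 (log2 fold change 0.51, SE 0.43), and the groups overlapped. The inhibitors thus differed in sign, and the interval of 95% of each spanned both signs, with and without the experiment as a term.

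Among the classic targets, Ptgs2 and Vcam1 had siFxr1 values above both siControl values, almost all of it from experiment 2. Ptgs2 encodes cyclooxygenase-2, the inducible enzyme of prostaglandin synthesis, and its probe is printed 10 times on the array. It was at 11.94 and 11.59 in siControl and at 12 and 12.63 in siFxr1. The difference was 0.06 in experiment 1 and 1.04 in experiment 2, a log2 fold change of 0.55 (SE 0.32) with an interval of 95% from -0.42 to 1.52. Vcam1, an adhesion molecule for leukocyte integrins that myoblasts also carry, was at 13.99 and 12.70 in siControl and at 14.02 and 14.07 in siFxr1 on its brighter probe. Of these 4 arrays, 3 were close together, and the siControl array of experiment 2 was low. The difference was 0.03 in experiment 1 and 1.37 in experiment 2, with a log2 fold change of 0.70 (SE 0.53). The second Vcam1 probe did not follow the first. It was at 9.05 and 8.44 in siControl and at 8.74 and 8.49 in siFxr1, with a log2 fold change of -0.13 (SE 0.29). The brighter probe lies at 115813216 to 115813275 on the minus strand of chromosome 3 and the dimmer one upstream of it, at 115828953 to 115829012 (mm9).

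Birc3 encodes cIAP2, an inhibitor of apoptosis, and Icam1 an adhesion molecule that endothelial cells raise in inflammation. Each had 1 probe. The log2 signal of Birc3 was between 2.59 and 3.08 and that of Icam1 between 2.79 and 3.40, while the lowest signal among spots well above background was between 4.19 and 5.36 on the 4 arrays. Neither probe was well above background in either condition, so no fold change is given.

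**Figure D2:**
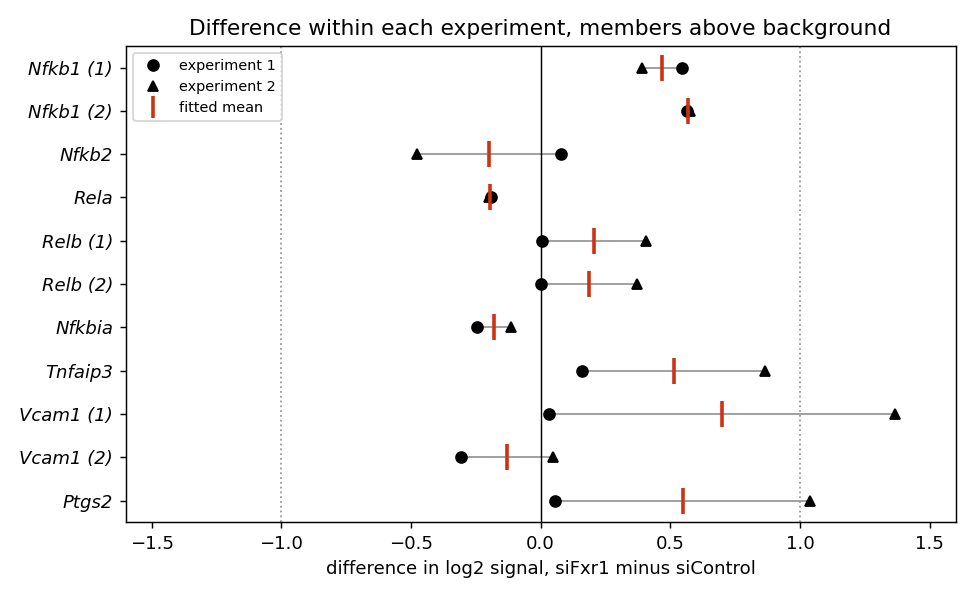
Difference in normalized log2 signal between siFxr1 and siControl (horizontal axis) within experiment 1 (circles) and experiment 2 (triangles), with the fitted mean (red bar), for the 11 probes of the 8 members above background; dotted lines mark 2-fold. Nfkb1 (2) and Rela differ by almost the same amount in both experiments, while Vcam1 (1) and Ptgs2 pass 2-fold in experiment 2 only.

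Counted over all 13 probes, the groups did not overlap for 4. The second Nfkb1 probe, the brighter Vcam1 probe and Ptgs2 were higher in siFxr1, where 12.7% of all probes were, and Rela was lower, where 22.8% of all probes were. These shares were 15.9% and 14.8% among probes that were not dim. The Vcam1 groups overlapped under 75th-percentile scaling and each other background treatment. With the experiment as a term and only such probes tested, 354 of 25540 probes (1.39%) had a B value above 0, which is the log odds of a change, and none of the 11 member probes did. In that fit Vcam1 had an adjusted p of 0.364 and the second Nfkb1 probe one of 0.267.

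Several members differed more from one experiment to the other than with the siRNA. In experiment 2 the brighter Nfkb1 probe was higher than in experiment 1 by 1.18 in siControl and 1.02 in siFxr1, and Nfkbia by 1.21 and 1.34. These 2 member probes were at least 2-fold higher in experiment 2 in both conditions, as were 5.23% of all probes. Nfkb2 was higher by 1.31 and 0.76, and Relb by 0.57 and 0.97. Tnfaip3 went the other way, at -0.99 in siControl and -0.28 in siFxr1, and Rela hardly moved (0.10 and 0.09). The second Nfkb1 probe, at -0.10 and -0.09, did not show the difference of the first. Of the 89 other pathway genes with a probe, 7 were at least 2-fold higher in experiment 2 in both conditions, and 2, Plau (-2.73 in siControl and -2.32 in siFxr1) and Il1b (-1.79 and -1.17), at least 2-fold lower. Saa3 (an acute-phase protein), Nfkbiz (an atypical IkB protein that NF-kB induces) and the chemokine Cxcl1, all chosen after their values were seen, were among the 7. Saa3 was at 8.19 and 11.86 in siControl and at 8.47 and 11.63 in siFxr1. Nfkbiz was at 7.62 and 10.41 in siControl and at 7.78 and 10.28 in siFxr1. Cell type markers differed between the experiments as well. Of the myoblast markers, Myog, a factor of terminal differentiation, was lower in experiment 2 by 2.14 in siControl and 2.09 in siFxr1, and Cdh15 by 1.05 and 0.89. The myeloid marker Itgam was higher by 2.48 and 1.59 on its brightest probe, while Ptprc was not well above background on any array. The further Itgam probes, each well above background on 1 array only, differed by 1.01 and -0.74, and by 0.52 and 1.01. The part of these differences in those of the members was not tested.

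**Figure D3:**
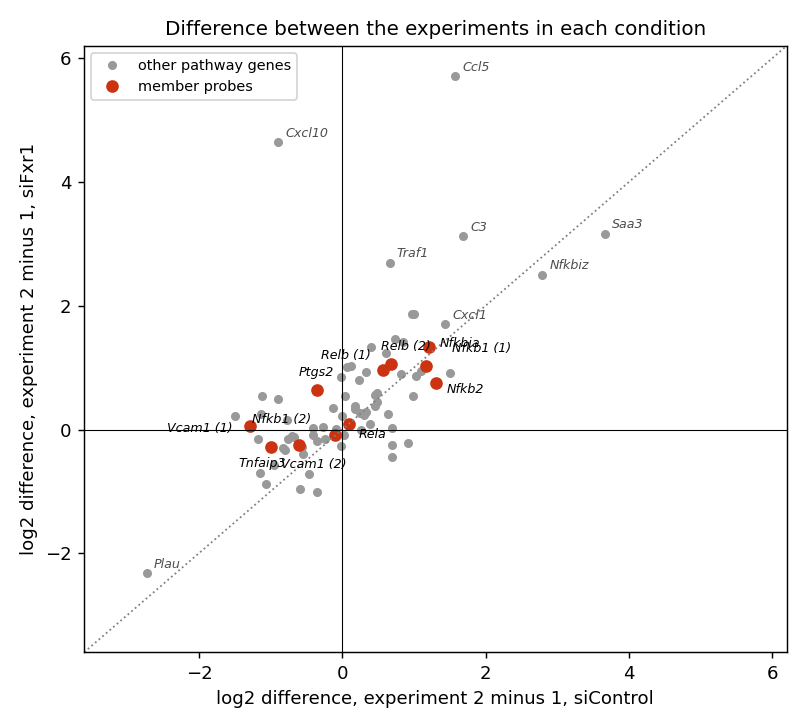
Difference in normalized log2 signal between experiment 2 and experiment 1 in siControl (horizontal axis) and in siFxr1 (vertical axis) for the 11 member probes above background (red) and the 71 other pathway genes well above background on all 4 arrays (grey); the dotted line marks equal differences. Nfkbia, Nfkb2 and the brighter Nfkb1 probe lie to the upper right near the line, and Cxcl10 and Ccl5 far above it.

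The rest of the pathway was read from 90 genes in 7 lists, of which 89 had a probe and 71 were well above background on all 4 arrays. None passed the test. By their brightest probe 32 were higher in siFxr1 in both experiments, 24 were lower in both and 33 differed in sign, with a median log2 fold change of 0.11. These counts include 11 genes well above background on no array and 7 on some arrays only, so their signs carry little weight. Beside the counts of each list stand the shares among probes that were not dim, 33.2% higher and 31% lower in both. In the Rel and IkB family, Nfkbie (IkB-epsilon) differed by 0.41 (SE 0.41) and Nfkbib (IkB-beta) by -0.20 (SE 0.18). Further Nfkbib probes, well above background on all 4 arrays, gave -0.29 (SE 0.25), with opposite signs in the experiments, and -0.84 (SE 0.40). Rel, named after its values were seen, was not well above background on any array.

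The 12 kinases and their partners were all well above background, 4 of them higher and 6 lower in both experiments. Chuk, the catalytic IkB kinase alpha, was at 12.34 and 12.36 in siControl and at 13.09 and 12.999 in siFxr1, which amounts to 0.69 (SE 0.15) on the log2 scale. Ikbke, a kinase related to it that also acts in interferon signalling, was lower, with a log2 fold change of -0.97 (SE 0.50), and Tab1, a partner of the kinase TAK1, with one of -0.52 (SE 0.30). Ikbkb, the other catalytic subunit and named here beside Chuk after its value was seen, differed by -0.38 (SE 0.47), within its error.

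Of 12 receptors, 6 were higher and 2 lower in both experiments. The interleukin-1 receptor pair was higher, Il1rap with a log2 fold change of 1.18 (SE 0.51) and Il1r1 with one of 1.03 (SE 0.43), as was Tlr6, a Toll-like receptor for lipopeptides, with one of 1.08 (SE 0.46). None reached 2-fold in both experiments. The value of Il1rap rests on its brightest probe, since its further probes were not well above background on any array. Among 10 adaptors and ubiquitin ligases, 3 were higher and 3 lower. Birc2, which encodes cIAP1 and is the close paralogue of Birc3, was at 10.22 and 11.06 in siControl and at 8.69 and 10.10 in siFxr1, a log2 fold change of -1.24 (SE 0.66). Ticam1, the TRIF adaptor of Toll-like receptors, differed by -0.85 (SE 0.23) and Tradd, the adaptor of the TNF receptor, by -0.66 (SE 0.17).

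Of the 10 further negative regulators, none was higher in both experiments by its brightest probe, 4 were lower in both and 6 differed in sign. Among probes that were not dim, 31% were lower in both. The count depended on the probe read. Second probes of Tnip2 (0.04 and 0.09) and Rnf11 (0.03 and 0.12), well above background on all 4 arrays, were higher in both experiments. The 3 with the largest differences among those 4 were Otud7b (Cezanne) at -0.96 (SE 0.21), Cyld at -0.76 (SE 0.55), both deubiquitinases, and Nfkbil1 at -0.26 (SE 0.30). A second Cyld probe gave -0.28 (SE 0.59). Tnfaip3 was higher in both experiments, and none of these differences passed the test.

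Only 2 of 10 ligands were well above background on all 4 arrays, Il33, with a log2 fold change of -0.66 (SE 0.33), and Tnfsf12. Tnfsf12, Tnf and Ltb are named after their values were seen. Tnf was above background on 1 array alone, that of siFxr1 in experiment 2. Ltb was above background on both siFxr1 arrays and on no siControl array, with signals of 5.71 and 4.38 against 3.50 and 4.06. In the main fit the siFxr1 mean was 1.39-fold above the lowest signal well above background on the siControl arrays. This is no bound across the processing, since the log2 fold change of Ltb fell from 1.26 to as low as 0.35 under the other settings. In experiment 2 its signals of 4.38 and 4.06 were close.

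Among 30 further inflammatory targets, 29 had a probe, 13 were higher in both experiments, 4 were lower in both and 12 differed in sign, with a median log2 fold change of 0.34. Of those with a probe, 5 were well above background on no array and 2 on some arrays only. Il6, the myokine and acute-phase cytokine whose kB match is printed above, was at 7.82 and 7.02 in siControl and at 9.93 and 9.60 in siFxr1. It was higher by 2.11 in experiment 1 and 2.58 in experiment 2 (log2 fold change 2.35, SE 0.37, limma adjusted p = 0.950). C3, a complement component, differed by 1.44 (SE 1.40) and Plau, the urokinase plasminogen activator, by 1.34 (SE 1.41), and both spread widely between the experiments. Plau was at 9.93 and 7.20 in siControl and at 11.07 and 8.75 in siFxr1, so its groups overlapped. Mmp9, chosen after its values were seen, encodes a gelatinase. It was at 5.40 and 4.24 in siControl, where 1 of the arrays was well above background, and at 7.81 and 9.92 in siFxr1. Thus Il6, Plau, Mmp9 and the ligand Il1b were at least 2-fold higher in both experiments, as were 1.39% of all probes and 1.94% of those not dim. None of the 10 members was, and Mmp9 and Il1b had 1 siControl array not well above background. Il1b, named after its values were seen, fell short of 2-fold under normexp, median minus local background, no background correction and the authors' table. Its log2 fold change was 0.49 without background correction against 1.46. Mmp9 stayed at least 2-fold higher in both experiments, with 2.19 against 4.05.

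A few targets were high on a single array, that of siFxr1 in experiment 2, and were chosen after their values were seen. The chemokine Cxcl10 was at 7.02 and 6.13 in siControl and at 6.79 and 11.44 in siFxr1. Ccl5 was at 8.03 and 9.61 in siControl and at 7.70 and 13.41 in siFxr1. Traf1, an adaptor that NF-kB induces, was at 6.97 and 7.63 in siControl and at 6.85 and 9.55 in siFxr1. Among the members, Ptgs2 and Relb were highest on that array too, at 12.63 and 12.74. So were the brighter Nfkb1 probe, at 10.39, which differed more between the conditions in experiment 1, and narrowly the brighter Vcam1 probe, at 14.07 against 14.02. The other members did not share this. Nfkb2, Rela and Nfkbia were highest on the siControl array of experiment 2, at 12.63, 14.66 and 15.18. The siFxr1 array of experiment 1 was the highest for Tnfaip3 (9.23) and the second Nfkb1 probe (9.56). For the second Vcam1 probe it was the siControl array of experiment 1. Tnfaip3 and the brighter Vcam1 probe also differed more in experiment 2, but there the siControl array was the low one, and the second Vcam1 probe differed by 0.05. With 1 pair of arrays per experiment this difference between experiments was not tested.

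**Figure D4:**
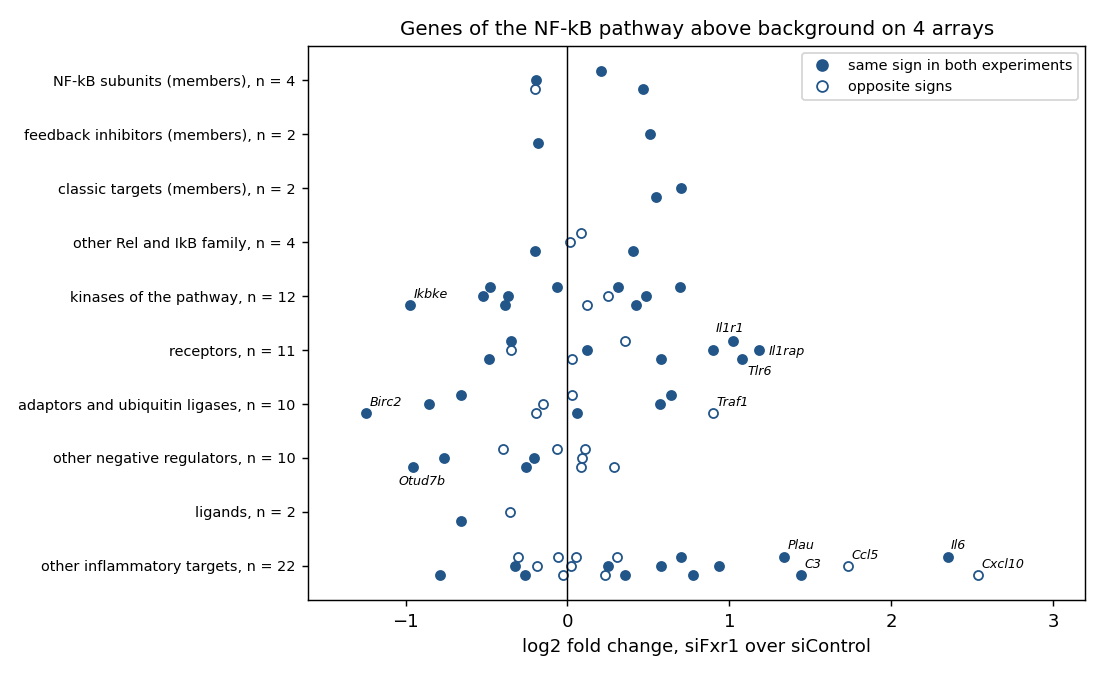
Log2 fold change of siFxr1 over siControl (horizontal axis) for the genes of each list well above background on all 4 arrays, by their brightest probe; filled points had the same sign in both experiments and open points opposite signs. The members lie between -0.20 and 0.70, while Il6 stands at 2.35 and Birc2 at -1.24.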

How the data were processed

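The authors deposited, per array, the intensity of every spot from Agilent Feature Extraction 10.7.3.1, background-corrected within the array, and a table of normalized intensities, used here as an alternative. The members and gene lists were chosen with earlier results of these data known. In R 4.3.3 with limma 3.58.1, log2 values of the corrected intensity were quantile-normalized over the 59305 spots other than controls. Outlier spots (145 to 177 per array) were then set to missing and spots of a probe averaged; no spot was saturated. lmFit and eBayes used condition as the only term, so the SE values include the difference between the experiments. With the experiment as a term, the SE fell from 0.66 to 0.25 for Birc2 and rose from 0.15 to 0.20 for Chuk. Calls were made at a Benjamini-Hochberg adjusted p under 0.05 or a B value above 0, at limma's default prior share of 0.01. Probes were counted as well above background where at least 0.5 of their spots carried that mark (45.4 to 52.94% of probes per array), and the number of arrays limits the precision. A gene is read by its brightest probe. Beside the members and Fxr1, up to 3 genes per list are named, those with the largest changes among genes above background on all 4 arrays with the same sign in both experiments; genes named after their values were seen are marked as such.

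Replicate numbers are experiments on shared slides according to the labels, and samples of the same number deviated from their condition means together (r = 0.714), so they pair the samples. The fit was tested on simulated data. With 1 spread shared by all probes it recovered the changed probes. With the measured spread of each probe it missed most without the block and all with it. That first version of the test was replaced as the pass criterion by the former, so the absence of calls says little, even about changes nearly as large as that of Fxr1. Promoters were read from RefSeq (GRCm38.p6). The accessions of all 13 member probes matched their symbols in RefSeq. Probe positions are those of the array annotation on mm9, and their place within exons was not analysed here. Alternatives were 75th-percentile scaling, normexp with an offset of 50, median signal minus local background, no background correction, the authors' table, leaving out dim probes, a block for the experiment, both together, a fit to all 4 ratios of a siFxr1 to a siControl array, an intensity trend, other probes of a gene, and each array left out.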

Additional observations from a re-analysis of the deposited data

How the results depend on the processing

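No member probe was called under any of the 14 alternatives. The experiment as a replicate block called 0 probes on its own and changed no call of a member. With the block and the filter on dim probes 280 probes passed the adjusted p and 354 had a B value above 0, and with the 4 ratios as observations 1064 and 1107 did, the second Nfkb1 probe having an adjusted p of 0.0508 there. The 4 ratios share arrays and are not independent, so their p-values are too small. The log2 fold changes of the 8 measured members kept their sign in 66 of the 75 recalculations that could change them. The sign turned for the other Vcam1 probe (-0.13) and in some of the fits that left out 1 array, which ranged from -0.12 to 1.05 for Nfkb1, from -0.85 to 0.46 for Nfkb2, from -0.28 to 0.69 for Relb and from -0.85 to 0.49 for Nfkbia. Without a turn of sign they ranged from 0.06 to 1.34 for Vcam1, from 0.02 to 1.01 for Tnfaip3 and from 0.23 to 0.86 for Ptgs2. Without 1 array the pairing is broken, and a lone array is assumed to vary like the others. Under the other settings Rela ranged from -0.20 to -0.11 and Nfkbia from -0.18 to -0.08. The fold changes of Birc3 and Icam1, below background on every array, were not compared, but their probes enter the counts that follow.

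Counts over all probes depended on the scaling, the background correction and the filter, and the cause was not tested. Probes at least 2-fold higher in both experiments numbered 496 with the filter on dim probes, 181 with normexp, 333 with the median minus local background, 159 without background correction and 159 in the authors' table, against 773. Those 2-fold lower numbered 169, 286, 152 and 152 under the last 4 settings, against 645. With the filter, 4067 probes were higher without overlap and 3765 lower. Those lower without overlap numbered 4607 with 75th-percentile scaling, 7878 with normexp, 7839 with the median minus local background, 8271 without background correction and 8244 in the authors' table, against 12707, while those higher numbered 7354, 8119, 8056, 8445 and 8444, against 7083. Member probes lower without overlap numbered 0 with 75th-percentile scaling, 2 with normexp, 3 without background correction and 3 in the authors' table, against 1. Rela was the only measured member among them. The added probes were Icam1 with normexp, and Icam1 and Birc3 without background correction and in the authors' table. Neither of these was well above background on any array. Those higher numbered 2 under 75th-percentile scaling and each background alternative, against 3, and Vcam1 was the one lost. With 2 arrays per condition the smallest exact two-sided p for a single gene is 0.33.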
